A study of Mus musculus with 4 samples.

Results

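Transcripts of 9 S100 calcium-binding proteins were examined in mouse liver that lacked the phosphatase Shp2 in hepatocytes. The members are S100a8, S100a9, S100a10, S100a11, S100a6, S100a4, S100a16, S100a13 and S100a1, out of 16593 genes with a symbol on the array, and each had 1 probe, found by its symbol in the platform annotation. The family was picked because S100a8 and S100a9 were higher in the knockout, so the differences between the groups are given below as a description and carry no test. The knockout group, Shp2hep-/-, comprised 2 livers of albumin-Cre-positive mice, in which the albumin promoter drives the recombinase in hepatocytes while other liver cells keep the gene. The control group, WT Shp2Floxed/Floxed, comprised 2 livers of mice with the floxed alleles, and only the knockout group is described as Cre-positive. All mice were 2 months old and had not been fasted; the labels state neither sex nor whether animals were pooled. The p-values below thus cover no more than the spread among these 4 samples, which may be technical.

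S100 proteins are small cytosolic proteins with a pair of EF-hand loops that bind calcium, and most work as dimers that grip a partner protein once calcium is bound. S100A8 and S100A9 form calprotectin, which is stored in large amounts in neutrophils and monocytes, binds zinc and manganese, and acts on Toll-like receptor 4 and RAGE when released. S100A10 departs from the family rule, since its loops no longer bind calcium, and it forms a tetramer with annexin A2. In liver, S100A6, S100A11 and S100A4 are better known from bile duct, stellate and blood-derived cells than from hepatocytes.

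All 9 genes lie on chromosome 3 in the RefSeq gene annotation. S100a1, S100a13, S100a16, S100a4, S100a6, S100a8 and S100a9 stand in that order in one cluster with other S100 genes, and S100a11 and S100a10 are neighbours farther along. RefSeq promoter windows (250 bases before to 50 bases after an annotated start) were at hand for 8 of the 9 members, with 2 windows for S100a16. The stretches below are shown because S100a8 and S100a9 are the pair on which the description turns, S100a4 shares their TATA motif, and S100a11 has a promoter of another kind. Each reads 5′ to 3′ on the gene's own strand, with motif matches in capitals.
S100a8: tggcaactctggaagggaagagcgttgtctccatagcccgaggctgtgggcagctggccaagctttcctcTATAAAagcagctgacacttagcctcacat
S100a9: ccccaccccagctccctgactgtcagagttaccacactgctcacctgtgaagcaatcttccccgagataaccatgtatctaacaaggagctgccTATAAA
S100a4: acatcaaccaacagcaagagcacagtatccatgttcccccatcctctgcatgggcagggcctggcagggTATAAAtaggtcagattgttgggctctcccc
S100a11: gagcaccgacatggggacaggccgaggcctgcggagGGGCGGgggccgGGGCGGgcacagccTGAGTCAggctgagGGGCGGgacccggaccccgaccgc

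These stretches are chr3:90668971-90669070 on the plus strand for S100a8, chr3:90695716-90695815 on the minus strand for S100a9, chr3:90603670-90603769 on the plus strand for S100a4 and chr3:93520396-93520495 on the plus strand for S100a11 (GRCm38.p6). The TATA motif TATAAA begins at position −30 of S100a8 and −31 of S100a4, counted from the annotated start. In S100a9 it begins at position 1, on the annotated start itself, so that stretch runs 6 bases past the start. On the gene's strand between positions −40 and −20, TATAAA occurs in 2.0% of all 32851 promoter windows, and anywhere on either strand in 13.6%. The S100a11 stretch holds GGGCGG, the Sp1 motif, 3 times and the AP-1 motif TGANTCA once. In the whole window of S100a11, 61.7% of bases were G or C with 15 CpG steps, against 50% and 4 for S100a8 and 51.3% and 2 for S100a9; the median over all windows was 52.7% and 7.

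Over the full windows and both strands, TATAAA was found in 3 of the 8 members, TGANTCA in 2 (7.8% of all windows), the C/EBP core TTGCNNAA in 1, S100a9 (10.8%), the ETS core GGAAGT in 6 (23.8%; the windows of S100a1 and S100a13 overlap and share 1 and the same match) and GGGCGG in 3 (35.7%). The STAT motif TTCNNNGAA was found in 0 of the 8 (8.3% of all windows). Within a window no match overlapped another. A match is a string of letters and not a measured binding site. The starts of S100a8 and S100a9 lie 26649 bases apart and the genes face each other. S100a1 and S100a13 are transcribed away from each other, with 104 bases between their starts. That shared stretch is shown because both transcripts were measured on every array, and it held no match to any of the motifs.
S100a1 to S100a13: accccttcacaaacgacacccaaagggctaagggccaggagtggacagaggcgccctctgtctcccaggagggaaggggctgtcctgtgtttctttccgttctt

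It spans chr3:90514331-90514434 (GRCm38.p6) and is written on the plus strand, the strand of S100a13.

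On the arrays, 11809 to 12328 probes were above background in knockout livers and 11542 to 11990 in control livers, of 25697. A probe counted as above background at a detection p under 0.05. Across genes the normalized values correlated at r = 0.982 between the knockouts, at r = 0.984 between the controls, and at 0.964 to 0.974 between a knockout and a control. Genes are not independent replicates. Ptpn11, the gene for Shp2, had log2 intensities of 11.38 and 11.56 in knockout livers, against 12.75 and 12.85 in control livers; the difference of −1.33 (SE 0.18, n = 2 per group) missed the threshold of limma's test (adjusted p = 0.0599). Its adjusted p ran from 0.00115 to 0.0921 over the alternatives with all arrays kept, and it passed in 5 of 10. These values are from the brightest Ptpn11 probe. Other Ptpn11 probes that were above background on all 4 arrays differed by −1.13 and −1.26. A further probe, not above background on any array, differed by 0.28. Whether any of these probes lies in the deleted part was not analysed here. Of the liver's own genes, 12 of 14 hepatocyte markers on the array were detected on at least 2 arrays. The probe of Alb was close to background, and those of Fgb and Tat were not above background on any array. In bulk tissue, fewer cells of a type and less RNA per cell cannot be told apart.

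S100a8, the smaller subunit of calprotectin, was above background only in knockout liver. Its scanner intensity was 384 and 387 units in knockout livers, against 234 and 229.6 in control livers. The lowest intensity called detected was 247 and 267 on the knockout arrays, against 258 and 272 on the control arrays. Both knockout values thus cleared the detection limit of their array and both control values fell short of it, with detection p of 0.286 and 0.554 in control replicates 1 and 2. On the normalized log2 scale S100a8 stood at 7.43 and 7.42 in knockout livers, against 5.32 and 5.03 in control livers. Since the control values lie below the detection limit, only a bound is given: on this scale S100a8 was at least 2.97-fold higher in knockout. That bound sets the knockout mean of 7.42 against a limit of 5.85, the mean over the control arrays of the lowest detected value.

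S100a9, the other calprotectin subunit, showed the same pattern at lower brightness. Its scanner intensity was 299 and 287 units in knockout livers, against 211 and 197 in control livers. Knockout replicate 2 cleared the detection limit of 267 on its array by little. Detection p was 0 and 0.00504 in knockout livers, against 0.658 and 0.933 in control livers. The log2 values were 6.59 and 6.23 in knockout livers, against 4.96 and 4.68 in control livers, which gives a bound of at least 1.47-fold higher in knockout. The groups did not overlap for either gene. Among all 9311 rows tested, 2.21% were likewise detected on both knockout arrays and on no control array. The plot of scanner intensities sets each bar of the calprotectin genes against the detection limit of its array.

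**Figure D1:**
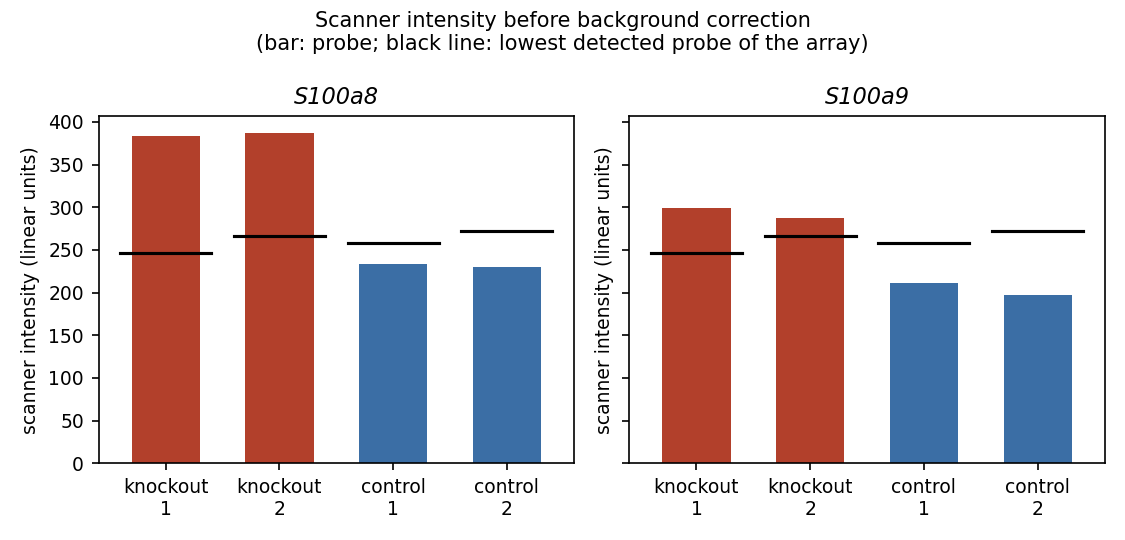
Scanner intensity (linear units, before background correction) of the S100a8 and S100a9 probes on the 2 knockout and 2 control arrays, as bars from 0, with a black line at the lowest intensity called detected on that array. The knockout bars, 384 and 387 for S100a8 and 299 and 287 for S100a9, stand above their lines, and the control bars stand below theirs.

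The fitted differences, knockout minus control, were 2.25 (SE 0.19) for S100a8 and 1.58 (SE 0.22) for S100a9 on the log2 scale. They are not bounds, and like the bounds they depend on how dim values are treated. Without background correction they were 0.73 and 0.54, with an offset of 50 in place of 16 they were 1.55 and 0.93, and from the authors' processed intensities they were 3.11 and 2.52. Among those processed intensities, S100a8 had 174 and 173 units in knockout livers, against 14.3 and −3.04 in control livers. S100a9 had 89.4 and 64.1 units in knockout livers, against −7.82 and −34.3 in control livers. Before the log2 step the offset of 16 was added, and a negative processed intensity counted as that offset alone. This held for S100a8 in control replicate 2 and for S100a9 in control replicates 1 and 2. The differences of 3.11 and 2.52 thus depend on the offset chosen here. Leaving out any 1 array kept both fitted differences within 2.11 to 2.39 for S100a8 and 1.41 to 1.76 for S100a9; with groups that do not overlap, a direction kept in this way says little. Both genes entered the test only through their knockout arrays, so each had to differ to be tested.

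**Figure D2:**
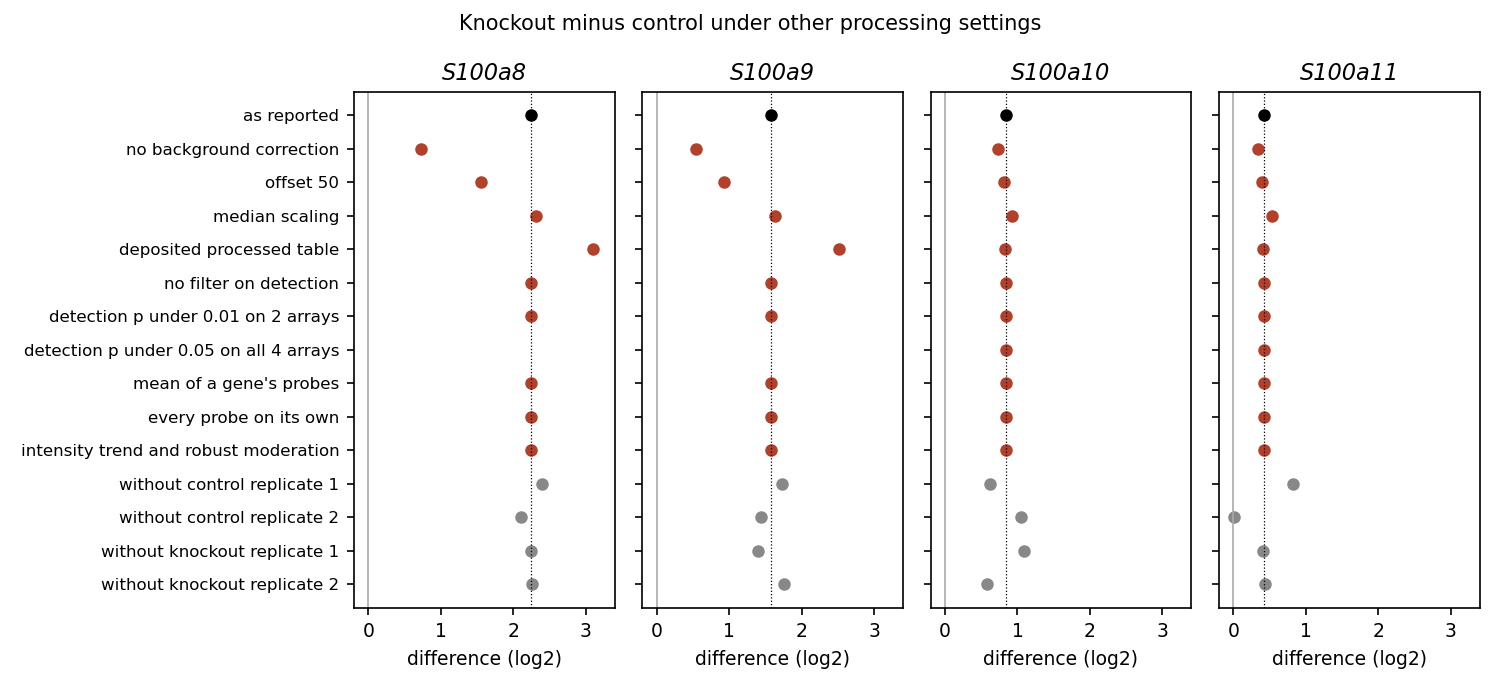
Difference in log2 intensity, knockout minus control, of S100a8, S100a9, S100a10 and S100a11 as reported (black), under other processing with all arrays (red) and with 1 array left out (grey). S100a8 ran from 0.73 to 3.11 and S100a9 from 0.54 to 2.52 with all arrays kept, whereas S100a10 stayed between 0.73 and 0.92; S100a11 was 0.01 without control replicate 2.

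Among the members measured well above background in every liver, S100a10, the annexin A2 partner, was higher in knockout. It had log2 intensities of 10.68 and 11.18 in knockout livers, against 9.88 and 10.31 in control livers. The groups did not overlap, and replicates differed by 0.50 within knockout and by 0.43 within control. The difference was 0.84 (SE 0.27), a fold of 1.79. Anxa2, which encodes annexin A2, stood at 10.85 and 10.78 in knockout livers, against 10.39 and 9.91 in control livers, and its difference of 0.67 (SE 0.23) did not pass limma's test over all rows (adjusted p = 0.247).

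S100a11, a partner of annexin A1, had nearly the same value on 3 arrays. It stood at 10.18 and 10.15 in knockout livers, against 10.16 and 9.33 in control livers. Only control replicate 2 was lower, and the groups overlapped. The difference of 0.42 (SE 0.31) was 0.01 without control replicate 2 and 0.83 without control replicate 1. Anxa1 was not above background on any array.

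S100a6, also called calcyclin, was high on 1 array only. Its log2 values were 6.08 and 7.38 in knockout livers, against 6.41 and 6.23 in control livers, so that knockout replicate 2 lay above all others and knockout replicate 1 below all others. The difference was 0.41 (SE 0.43) and turned to −0.23 without knockout replicate 2. S100a4, a regulator of non-muscle myosin that is widely used as a marker of fibroblasts and of some leukocytes, was close to the detection limit. It had 5.77 and 6.39 in knockout livers, against 5.88 and 6.16 in control livers, with detection p of 0.0445 and 0 in knockout and 0.0356 and 0.0190 in control. Its difference of 0.06 (SE 0.27) ran from −0.25 to 0.37 with 1 array left out. S100a6 and S100a4 thus shared their highest value on knockout replicate 2, where S100a10 was also highest.

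S100a16, a widely expressed member, had log2 values of 7.38 and 6.82 in knockout livers, against 6.78 and 7.11 in control livers, and the groups interleaved. Its difference was 0.15 (SE 0.26) and ran from −0.13 to 0.43 with 1 array left out. S100a13, which helps export fibroblast growth factor 1 and interleukin 1 alpha from cells, stood at 10.49 and 9.96 in knockout livers, against 10.41 and 10.67 in control livers. Knockout replicate 2 was the low one, the groups overlapped, and the difference of −0.32 (SE 0.25) was −0.05 without that array. S100a1, known above all as a calcium sensor of heart muscle, had 12.66 and 12.84 in knockout livers, against 13 and 12.84 in control livers. The difference was −0.17 (SE 0.19), 1.13-fold lower in knockout, and knockout replicate 2 and control replicate 2 had the same value to 2 decimals.

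**Figure D3:**
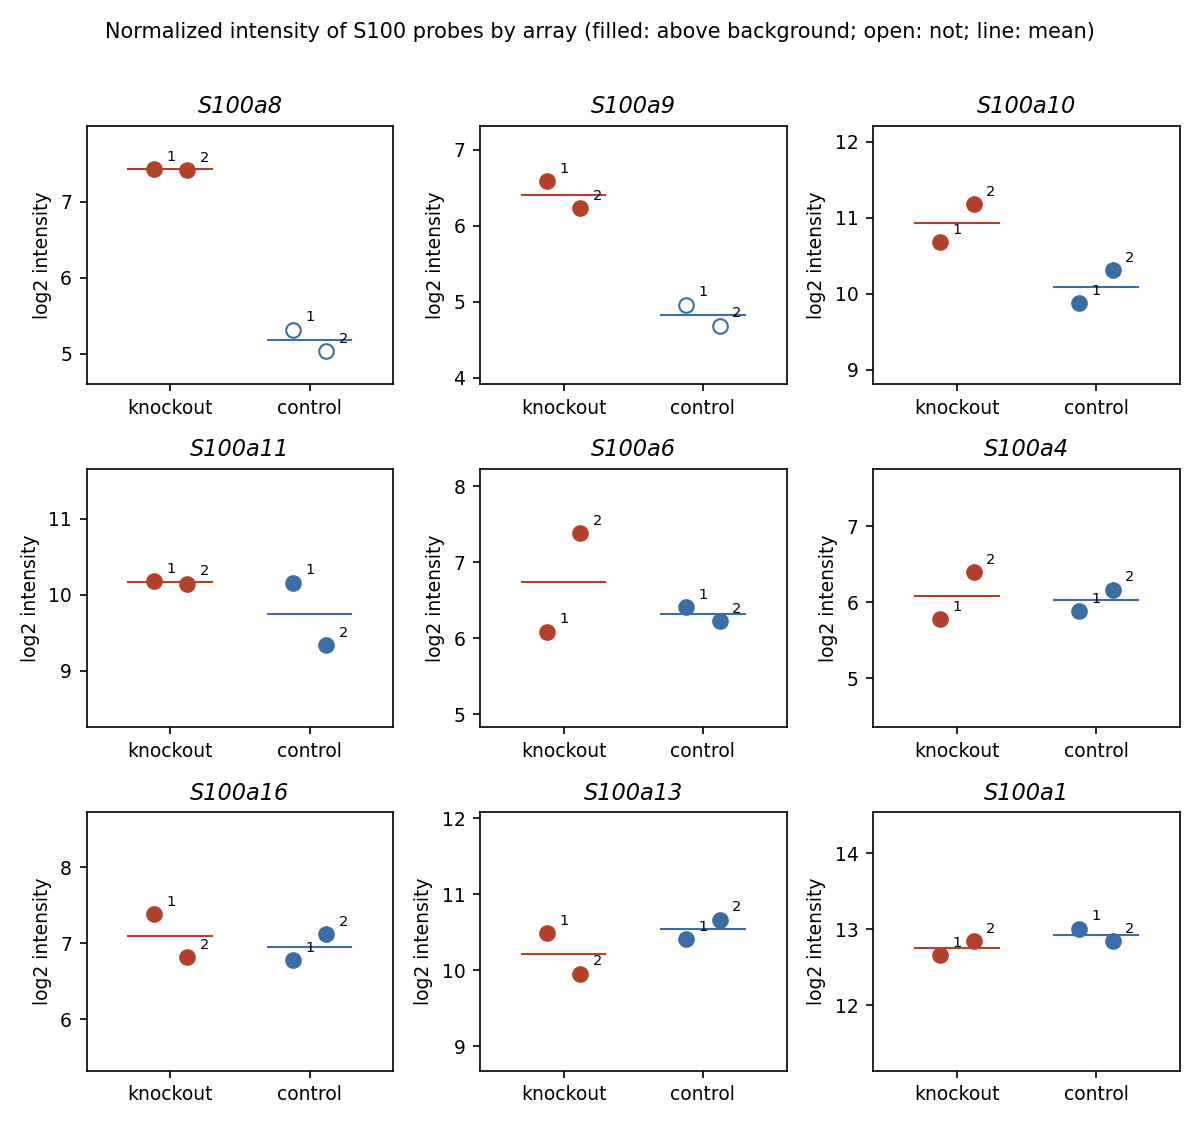
Normalized log2 intensity of the 9 S100 probes on the knockout arrays (red, left) and control arrays (blue, right), with replicate numbers, 1 panel per gene and the same span of the axis in each. Filled points are above background, open points are not, and lines are group means; the groups are apart for S100a8, S100a9 and S100a10 and overlap for the other 6.

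Across the 9 members, 7 differences were above 0 and 2 below, with a median of 0.41, against 0.01 over all rows tested. Without S100a8 and S100a9 the median of the other 7 was 0.15 and the range −0.32 to 0.84. The difference was smaller than the pooled replicate SD for 3 of the 9, S100a4, S100a6 and S100a16. For 3 members both knockout values lay above both control values, and for 0 both lay below. Over all rows 24.8% lay above and 23.8% below in this sense, 48.6% in all. Limma's test called 0.795% of all rows at an adjusted p under 0.05 (0.451% higher and 0.344% lower in knockout). The family was chosen on this contrast, so no call is given for its members. Nothing is read from the count of members whose groups did not overlap. Of the other S100 genes on the array, S100a3, S100a5, S100a7a, S100a14, S100b and S100g, 0 of 6 were above background on any array.

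For the receptors of calprotectin and their signalling chain, 0 of 8 tested genes passed limma's test in either direction, with a median difference of 0.03. Tlr4, which encodes Toll-like receptor 4, was detected on 1 knockout array and on no control array and was not tested, and Cd36, a scavenger receptor gene, was not above background on any array. Cd14, the endotoxin co-receptor gene, stood at 7.60 and 7.39 in knockout livers, against 6.69 and 5.94 in control livers (difference 1.18, SE 0.29, adjusted p = 0.161). Emilin1, a matrix glycoprotein gene, differed by 0.57 (adjusted p = 0.335) and Myd88, the adaptor below Toll-like receptors, by 0.35 (adjusted p = 0.532). Of the 8 tested genes, 5 had a difference above 0 and 3 below. Those below were Ager, which encodes RAGE (−0.31), Lbp (−0.27) and Bsg (−0.05). Ager was above background on 1 knockout array and on 2 control arrays. The test called 0.795% of all rows.

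Among genes for known protein partners of S100 members, 1 of 9 tested was lower and 0 were higher, beside 0.344% and 0.451% of all rows. Fgf1, the growth factor that S100A13 helps release, fell to 9.92 and 10.20 in knockout livers, against 11.61 and 11.91 in control livers. The difference was −1.69 (SE 0.21, adjusted p = 0.0494), 3.24-fold lower in knockout. With all arrays kept its adjusted p ran from 0.000984 to 0.0816 over the alternatives, and it missed the threshold with 1 array left out (0.0886 to 0.198). S100a13 itself overlapped between the groups, as given above. Capza1, an actin-capping subunit gene, differed by 0.58 (adjusted p = 0.448), and the median of the 9 partners was −0.02.

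Among transcription factor genes known to act on S100a8 and S100a9 in myeloid or epithelial cells, 1 of 9 tested was higher and 0 were lower. Over all rows 0.451% were called higher and 0.344% lower. The median of the 9 was 0.22 (0.48 without knockout replicate 1). Of the 9, 6 had a difference above 0 and 3 below. Those below were Hif1a (−0.26), Cebpb, a C/EBP factor gene (−0.23), and Jun (−0.002). Junb, an AP-1 subunit gene, rose to 10.08 and 9.90 in knockout livers, against 8.35 and 8.07 in control livers (difference 1.78, SE 0.20, adjusted p = 0.0424). With all arrays kept its adjusted p ran from 0.00177 to 0.0688, and with 1 array left out from 0.0787 to 0.189. Fos, its partner in AP-1, was above background only in knockout and at least 1.6-fold higher there (adjusted p = 0.0737). Like S100a8, it entered the test only through its knockout arrays. Cebpe, a C/EBP factor gene of granulocyte maturation, stood at 9.40 and 8.79 in knockout livers, against 7.17 and 7.70 in control livers (difference 1.66, SE 0.30, adjusted p = 0.102). Cebpe passed in 4 of 10 alternatives with all arrays kept, where its adjusted p ran from 0.0163 to 0.149. Spi1, the gene of the myeloid factor PU.1, was not above background on any array.

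Markers of neutrophils, which store calprotectin, were mostly below detection. Of 25 neutrophil markers on the array, 15 were not above background on any array, among them Mpo, Camp, Ngp, Mmp8, Cxcr2, Retnlg and Stfa1 to Stfa3, which encode granule proteins, a chemokine receptor and other proteins abundant in neutrophils. Counted by array, 8 and 6 markers were detected in knockout livers and 7 and 8 in control livers. Without Hp and Lcn2, which liver also makes and which the acute phase list holds, the summed normalized intensity of the list was 1959 and 2329 in knockout livers, against 2341 and 2388 in control livers. Most of that sum was Wfdc21, a whey acidic protein family gene, with 1342 and 1744 in knockout livers, against 1745 and 1750 in control livers. The other 22 markers summed to 617 and 584 in knockout livers, against 596 and 638 in control livers. Of these, the 17 untested markers summed to 297 and 329 in knockout livers, against 383 and 356 in control livers. As 15 of the 17 were not above background on any array, much of the sum is background and says little about neutrophils. None of the 8 tested markers passed limma's test, and their median difference was −0.12 (0.07 without knockout replicate 2). The smallest p-values belonged to Il1b, the interleukin 1 beta gene, which was above background only in knockout and at least 1.33-fold higher there (adjusted p = 0.187) and entered the test only through those arrays, Csf3r, the receptor gene for granulocyte colony-stimulating factor (0.59, SE 0.18, adjusted p = 0.224), and Lcn2, a siderophore-binding protein gene, which differed the other way (−0.78, SE 0.27, adjusted p = 0.254).

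Of 11 tested monocyte and Kupffer cell markers 0 were called in either direction, while 10 had a difference above 0 and the median was 0.72. For 10 of the 11 the groups did not overlap, beside 24.8% of all rows. Over the 15 markers on the array, tested or not, the summed intensity was 11231 and 10005 in knockout livers, against 7294 and 4370 in control livers. Lyz2, the macrophage lysozyme gene, stood at 10.21 and 10.92 in knockout livers, against 9.24 and 8.26 in control livers (difference 1.82, SE 0.41, adjusted p = 0.142). Lgals3, a galectin gene, differed by 1.22 (adjusted p = 0.151) and Timd4, a receptor gene of resident Kupffer cells, by 1.57 (adjusted p = 0.154). Without background correction Lyz2 and Lgals3 were called (adjusted p = 0.0330 and 0.0378), as they were with intensity trend and robust moderation (0.0336 and 0.0303). The monocyte genes Ccr2, Itgam and Cx3cr1, and Cd5l of Kupffer cells, were not above background on any array. All 11 tested markers were lower on control replicate 2 than on control replicate 1, with a median difference of −0.76. Of the 9 S100 members 5 were lower there, S100a1, S100a6, S100a8, S100a9 and S100a11. S100a8 and S100a9 were not above background on either control array, so their order there carries no information. The share of all rows lower there was not counted, and nothing is read from the 5 of 9. The median of the marker list was 1.22 without control replicate 1 and 0.45 without control replicate 2.

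Of 4 tested red cell genes 0 were called, while 4 had a difference above 0 and the median was 1.24 (0.74 without control replicate 2, and 0.66 to 1.27 over alternatives with all arrays kept). Hba-a1, an alpha globin gene, stood at 14.54 and 14.68 in knockout livers, against 13.85 and 12.80 in control livers (adjusted p = 0.187). Hbb-bt, a beta globin gene, differed by 1.19 (adjusted p = 0.116) and Alas2, which starts haem synthesis in red cells, by 0.50 (adjusted p = 0.281). Hbb-bt was called without background correction (adjusted p = 0.0330) and with intensity trend and robust moderation (0.0255). The summed intensity of the list was 31404 and 32908 in knockout livers, against 19273 and 12128 in control livers. The part of blood and myeloid cells in the differences of S100a8 and S100a9 was not tested.

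**Figure D4:**
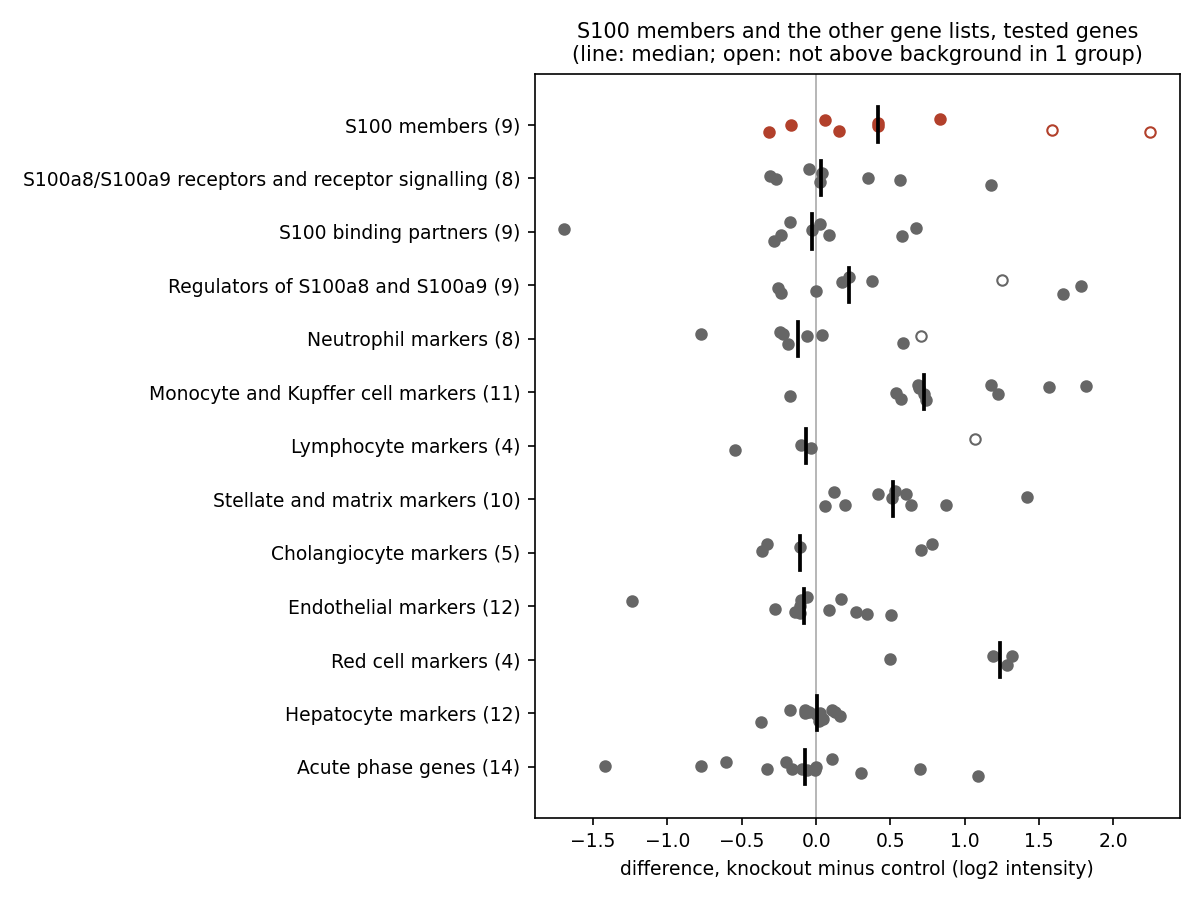
Difference in log2 intensity, knockout minus control, of each tested gene (points) in the S100 family (red, top) and in the other gene lists (grey), with the number of genes in brackets and a line at each median. Open points were not above background in 1 of the groups; the S100 median is 0.41, the monocyte and Kupffer cell median 0.72, the neutrophil median −0.12 and the hepatocyte median 0.01.

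Genes whose course over the 4 arrays was nearest to S100a8, by the Euclidean distance between log2 values centred on each gene's mean, were Csad, a taurine synthesis enzyme gene (distance 0.19), Tmem98, a membrane protein gene (0.24), Slc51b, a bile acid exporter subunit gene (0.35), Lmo2, a blood cell transcription cofactor gene (0.35), and Olig1, known as a transcription factor of oligodendrocytes (0.44). Nearest to S100a9 were Lst1, a leukocyte gene (0.22), Tmem51 (0.23), Fbxo21 (0.23), Junb (0.23) and Lpl, the lipoprotein lipase gene (0.24). Lst1 stood at 8.06 and 7.67 in knockout livers, against 6.61 and 6.03 in control livers. S100a9 itself was 0.71 from S100a8 and ranked 36 among 9310 rows. The control values of S100a8 and S100a9 were not above background, so these distances and ranks rest in part on undetected values that shift with the processing. With 4 arrays this likeness mostly restates the difference between the groups.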

How the data were processed

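Liver RNA of 4 samples (500 ng each) was amplified into biotin-labelled cRNA and measured on 4 Illumina arrays, per the labels' protocols. The authors deposited a scanner table with the mean bead intensity (linear scale, background not subtracted, every array with the same mean of 1186.5) and a detection p-value against negative control beads, per the file headers. The 4 lines without a probe identifier were left out. A second deposited table holds processed intensity, also linear, with medians of 31.62 and 31.63 on the knockout arrays and 31.58 and 31.61 on the control arrays; it ranks probes as the scanner table does (Spearman correlation 1), while the sources used here do not give its background method or normalization.

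In R 4.3.3 with limma 3.58.1, scanner intensities went through neqc (background from detection p-values, offset 16, quantile, log2). Probes detected at p under 0.05 on at least 2 arrays entered the fit, 12197 in all. A gene was its brightest passing probe, which gave 9311 rows. Symbols came from the platform annotation: 23978 probes had 1, 0 had several and 1719 had none. The contrast of knockout minus control came from limma (lmFit, then eBayes; two-sided test) with Benjamini-Hochberg adjustment over all rows and a threshold of 0.05. On simulated arrays with 200 of 9311 rows changed, this fit called 4.67% of 2-fold, 79.2% of 4-fold and 94.4% of 8-fold changes, and 5.36% of its calls were unchanged rows. The simulated noise was drawn independently for each row from the fit's own variance model. Shifts shared by many genes on an array were left out, so these rates hold for that model only. SE is the model's standard error. For probes undetected on every array of one group a bound is given: the bright group's mean against the dim group's limit, taken on each array as the lowest detected value or the probe's value, whichever was greater, and averaged. Such a bound holds on this normalized scale and is no floor for other processing. Summed intensities are normalized linear values less the offset. The number of arrays limits the precision.

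The members and gene lists were chosen with earlier results of these data known. Named are all S100 genes on the array, Ptpn11, called genes of each list or else up to 3 with the smallest p, and the 5 genes nearest to S100a8 and S100a9; other list members were named after their values were seen. Alternatives covered background, scaling, the processed table, filters, probes, moderation and leaving out each array. Processed intensities were put on the log2 scale after adding the offset of 16, with negative values taken as the offset alone. Position on the single BeadChip and group cannot be told apart.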

Additional observations from a re-analysis of the deposited data

How the results depend on the processing

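The number of rows called depended on the processing. As reported 74 were called (42 higher, 32 lower in knockout). Without background correction 321 were called (191 higher, 130 lower), with an offset of 50 there were 160 (88 and 72), with intensity trend and robust moderation 367 (221 and 146), with every probe on its own 46 (22 and 24), and from the processed intensities only 19 were called (7 and 12), so that the share of higher calls was 36.8% there, against 56.8% as reported. With 1 array left out, 0 to 27 were called, 0 to 13 higher and 0 to 16 lower, and without either knockout array 0 by limma; at an unadjusted p under 0.05 there were 1179 without knockout replicate 1 and 1511 without knockout replicate 2. The median of the S100 members was 0.16 without background correction, 0.51 with median scaling (which moved the median of all rows to 0.09) and 0.15 with detection required on all 4 arrays, which dropped S100a8 and S100a9; with 1 array left out it ran from 0.32 to 0.51. For S100a8 and S100a9 the difference was 0.73 and 0.54 without background correction, 1.55 and 0.93 with an offset of 50, and 3.11 and 2.52 from the processed table. The filter and moderation settings cannot move the difference of a member, which has 1 probe, except by dropping it, as the stricter detection limit of 0.01 did with S100a4. For the 37 tested genes followed, the sign reversed in 5 of 508 results, all of Cd3g, Cdh5 and Serpina1a. As reported these genes differed by −0.10, 0.50 and −0.17. Cd3g was 0.12 from the processed table. With 1 array left out Cd3g ran from −1.03 to 0.83, Cdh5 from −0.11 to 1.12 and Serpina1a from −0.35 to 0.00101. The causes were not tested. No paired analysis was possible because the labels number the knockout samples only. S100a8 and S100a9 had no control value above background.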

Other observations

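None of 14 tested acute phase genes passed limma's test (median −0.08). Saa4, a constitutive serum amyloid A gene, stood at 13.02 and 12.79 in knockout livers, against 14.34 and 14.30 in control livers (difference −1.42, SE 0.19, adjusted p = 0.0539; range over alternatives with all arrays 0.00046 to 0.0827). Serpina3n, an acute phase protease inhibitor gene, differed by −0.60 (adjusted p = 0.207; 0.0303 to 0.306 over the same alternatives), whereas Saa2, an inducible serum amyloid A gene, differed by 0.70 (adjusted p = 0.226). The hepatocyte list had a median of 0.01 with 0 of 12 called, and Hnf4a, a hepatocyte transcription factor gene, differed by −0.37 (adjusted p = 0.392).

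Of the stellate and matrix markers 10 of 10 tested were above 0, with a median of 0.52 and 0 called. The median was 0.80 without control replicate 1, 0.21 without control replicate 2 and 0.21 to 0.62 over alternatives with all arrays kept. Lum, a matrix proteoglycan gene, differed by 1.42 (SE 0.26, adjusted p = 0.103; 0.0179 to 0.148 over alternatives with all arrays). The cholangiocyte list had a median of −0.11 with 0 of 5 called; it was 0.70 with the stricter detection limit or with detection on all 4 arrays, and 0.22 with no filter. Krt7 and Krt19 were not above background on any array. Krt18, a keratin gene that hepatocytes share, differed by 0.78 (adjusted p = 0.154; 0.0268 to 0.222 over alternatives with all arrays). Endothelial markers had a median of −0.08 (0.39 without control replicate 1, −0.49 without control replicate 2) with 0 of 12 called, and all 12 were lower on control replicate 2 than on control replicate 1. Lymphocyte markers had a median of −0.07 with 0 of 4 called; it ran from −0.54 to 0.09 over alternatives with all arrays and was 0.15 without control replicate 1. Cd79b, a B cell receptor gene, was above background only in knockout and at least 1.63-fold higher there (adjusted p = 0.101 by limma). It entered the test only through those arrays. Of the 4 tested, only Cd79b had a difference above 0, and 3 were below: Ccl5 (−0.54), Cd3g (−0.10) and Nkg7 (−0.04). Among other B cell genes, Cd79a was not above background on any array. Ms4a1 was so on 1 control array and on no knockout array.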
